A study of Macaca mulatta with 95 samples.

Results

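LGALS1, LGALS2 and LGALS7 are 3 galectin genes among the 16049 genes of a table that holds 95 single cells of rhesus monkey (Macaca mulatta) embryos. They were picked by name, for levels by stage, position and lineage already seen in these same cells, so their levels and contrasts are given as a description and carry no test. The oocytes came from females stimulated with rhFSH and rhCG, and all embryos were fertilised in vitro and grown in HECM-9 medium with serum. No label names a genotype, a treatment group, an animal or an embryo. At about day 3, the 16-cell stage, 3 outer and 2 inner cells were taken. Early morulae of day 4 and late morulae of day 4.5 each contributed 5 outer and 5 inner cells. Early blastocysts of day 5 contributed 6 outer and 10 inner cells, and middle blastocysts of day 5.5 contributed 5 and 12. Only cells labelled inner were taken later, 19 from late blastocysts of day 6 and 18 from hatched blastocysts of day 7. A membrane dye taken up by the outside of the intact embryo set outer apart from inner cells. Each title also carries a letter (A, B, D, G or H) that the labels do not explain.

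Galectins are lectins that bind beta-galactoside sugars on glycoproteins and glycolipids. They are made in the cytosol, leave the cell by a route that needs no signal peptide, and can link glycoproteins outside it or act inside it. The 3 genes code for galectins with a single type of sugar-binding domain that pair with themselves. LGALS1 (galectin-1) binds laminin, fibronectin and integrins and is abundant in connective tissue, placenta and decidua. LGALS2 (galectin-2) is best known from the gut lining and from binding lymphotoxin. LGALS7 (galectin-7) is known from stratified epithelia such as the epidermis.

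All values below are RPKM, which divide a gene's reads by its length in kilobases and by the megareads of the cell. This is meant to put genes of unlike length on one scale, which was not tested for these amplified libraries. Recovered depth ran from 1.80 to 14.5 megareads per cell with a median of 9.09, and was lowest in the late morula, with a median of 4.54. A single read of LGALS1, LGALS2 or LGALS7 was worth a median of 0.112, 0.116 and 0.123 RPKM. Reads were found in 69, 12 and 39 cells, and at least 10 reads in 43, 7 and 23 cells. Letter and stage overlap: all 16-cell cells carry B, all early morula cells H and all late morula cells D, so stage and letter cannot be told apart there. Late blastocyst cells of letter H (all 4), and 5 of the 15 of letter G, carry a source label that says hatched blastocyst. They were kept as late blastocyst. The highest correlation between any pair of cells was 0.91. Markers of other cell types were found in part. The summed level per cell ran from 0 to 958 RPKM for 10 cumulus or granulosa markers (FSHR and FOXL2 at 0 in all 95 cells), from 0 to 417 for 10 fibroblast markers (LUM at 0) and from 0 to 1214 for 6 blood markers (HBA1 at 0).

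**Figure D1:**
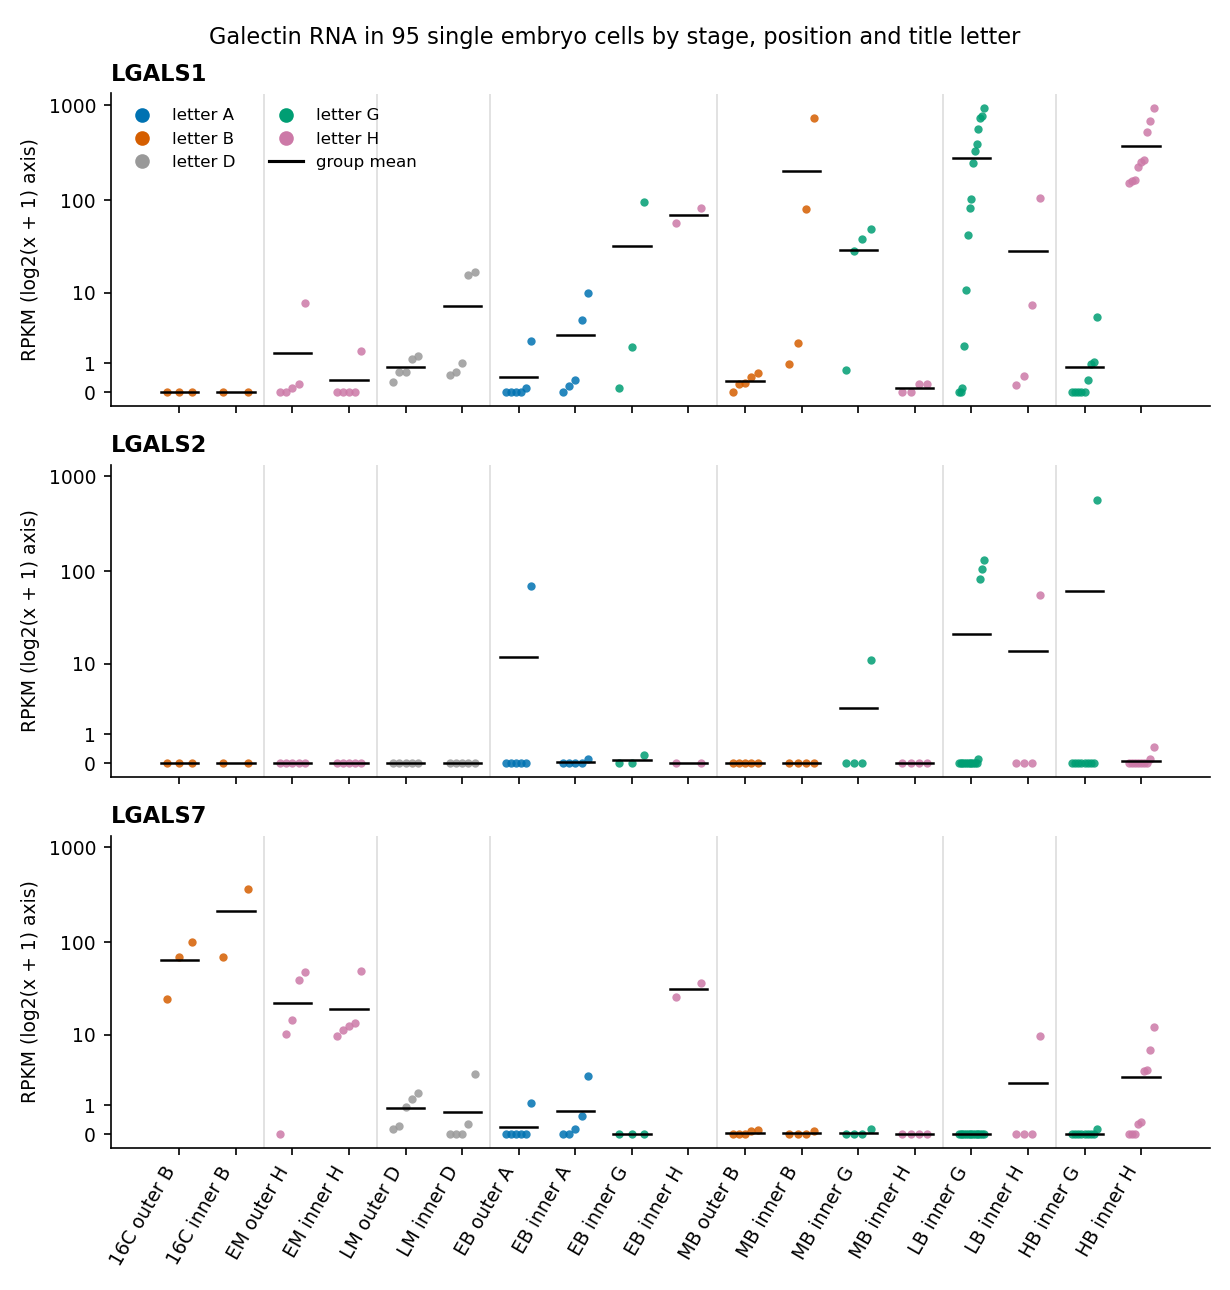
RPKM of LGALS1, LGALS2 and LGALS7 in each cell (points, on a log2(x + 1) axis) by stage, position and title letter, with the mean of each group as a black line. LGALS7 is highest at the 16-cell stage, between 25.0 and 361, LGALS1 is at 0 there and reaches 939 in hatched cells of letter H, and LGALS2 stands above 1 RPKM in 7 cells.

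Of the 3 genes, only LGALS7 was found at the 16-cell stage, where its group means were highest. In outer 16-cell blastomeres it stood at 25.0, 69.8 and 99.9 RPKM, and in the inner ones at 70.5 and 361. Early morula outer cells held 0, 10.1, 14.8, 39.8 and 49.1, and inner cells 9.70, 11.2, 12.4, 13.6 and 50.4. Late morula outer cells held 0.126, 0.229, 0.922, 1.34 and 1.70, and inner cells 0, 0, 0, 0.283 and 3.27. Each 16-cell blastomere lay above each late morula cell, and 4 of the 5 lay above all early morula cells. The 9 early morula cells with any LGALS7 lay above all 10 late morula cells. These levels rest on 253 to 2938 reads in 16-cell blastomeres, on 66 to 497 in the 9 early morula cells and on 1 to 16 in the 7 late morula cells with reads.

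Differences between groups are given as the log2 ratio of the group means after 1 RPKM was added to each, with outer and inner cells weighted equally where stages are compared. Genes were taken as measured if the mean of either side was at least 5 RPKM, and as called if they differed by 2-fold or more. From the 16-cell stage to the early morula LGALS7 was lower by 2.68 (means 140.2 and 21.1 RPKM, log2 ratio -2.68), in a contrast where 70.6% of the measured genes were called. Late against early morula gave -3.63, with 72.6% called, and late morula against 16-cell -6.30, with 56.2% called. Late morula cells had less depth, and 3 reads of LGALS7 in such a cell were worth 0.703 RPKM on average, below the lowest 16-cell value of 25.0. The inner 16-cell cell 1, at 361, holds much of the 16-cell mean, and without it the ratios are -1.64 for the early morula and -5.26 for the late morula. Scaling by median-of-ratios factors, which shifts the median of all genes in late morula against 16-cell from -0.25 to 1.81 and the share of calls that are higher from 42.0% to 87.9%, leaves LGALS7 at -4.98, or -6.79 relative to that median. In the other stage contrasts the same scaling moved the share of higher calls from 64.1% to 36.7% (early morula against 16-cell) and from 32.6% to 83.3% (late against early morula).

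By position the LGALS7 values overlapped at both stages. At the 16-cell stage the outer mean was 64.9 (SD over cells 37.7) and the inner mean 216 (205), a log2 ratio of -1.72 with 44.6% of genes called, and -0.12 without the inner cell 1. In the early morula outer cells averaged 22.8 (20.8) and inner cells 19.4 (17.4), a ratio of 0.22 with 25.3% of genes called.

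Among markers of other cell types TYROBP, an adaptor of blood cells, differed between the same stages, at 354 (399) in outer and 509 (473) in inner late morula cells against 7.23 (6.27) and 0.565 (0.0691) in 16-cell blastomeres, while CD74 was at 0 in all of these. Its part in the result was not tested.

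The genes whose log2(RPKM + 1) followed LGALS7 most closely over the 95 cells were PRAMEF20 (Pearson r 0.76), TEX19 (0.76), DUXA (0.73), PLAUR (0.73) and PRAMEF11 (0.73). DUXA is a homeobox gene of early genome activation, PRAMEF20 and PRAMEF11 belong to a multicopy family also transcribed at that time, TEX19 is a germline gene that restrains transposons, and PLAUR is the urokinase receptor. TEX19 averaged 108 (26.1) in outer and 139 (38.6) in inner 16-cell blastomeres and 4.56 (10.1) and 7.23 (9.52) in early morula cells. DUXA stood at 17.2 (9.34) and 23.8 (25.9) at the 16-cell stage and ran from 1.06 to 68.9 in outer and from 0 to 9.15 in inner early morula cells. Within blastocysts the likeness was weaker. Over the 70 blastocyst cells the same 5 correlations were 0.10, 0.43, 0.18, 0.32 and 0.00, and none of the 5 was among the 5 likest there. These correlations share each cell's library and depth, and the PRAMEF genes have near-identical copies among which reads can be split.

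In blastocysts LGALS7 reached 1 RPKM in few cells. Most of these carry letter H, as do all early morula cells, and no late morula cell carries it. It stood at 25.9 and 37.3 RPKM in the 2 inner early blastocyst cells of letter H, on 224 and 208 reads. In the 9 hatched cells of letter H it was 0 in 3 cells and 0.287, 0.328, 3.55, 3.75, 6.62 and 12.0 in the others. Of the 4 late blastocyst cells of letter H, cell 14 held 9.72 and the others 0. Among inner blastocyst cells, 7 of 19 of letter H reached 1 RPKM (36.8%, exact 95% binomial interval 16.3 to 61.6%). For letter G the count was 0 of 31, which allows up to 11.2%. Letter A had 1 of 5 and letter B 0 of 4. Only counting error is in such intervals, as some of the cells may share an embryo. The contrast of inner early blastocyst cells of letters G and H with letter A gave a log2 ratio of 2.96, in which 73.6% of the measured genes were called and 61.2% of the calls were higher (30.7% under median-of-ratios factors). It rests on the 2 letter H cells, since all 3 of letter G were at 0. What the letter stands for is not given, and its part in the result was not tested.

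LGALS7 has a near-identical neighbour, LGALS7B, in primate genomes. The table lists LGALS7 alone and the RefSeq gene table of the rhesus monkey lists LGALS7B alone, so the values may hold reads of either copy. In that RefSeq table LGALS7B lies on the same chromosome as LGALS4 with 2 genes between them, 1 of them protein-coding. LGALS4 (galectin-4, with a tandem pair of sugar-binding domains, known from gut epithelium) had a like start. It averaged 22.9 (21.4) in outer and 8.78 (8.79) in inner 16-cell blastomeres, 1.64 (3.68) in outer early morula cells, and 0 in all late morula cells. Late morula against 16-cell gave -4.07 for LGALS4 beside -6.30 for LGALS7.

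LGALS1 ran from none at the first stage to the highest level of the 3 at the last. It was at 0 in all 5 16-cell blastomeres, and 3 reads per cell would have been 0.324 RPKM. In the early morula outer cells held 0, 0, 0.120, 0.211 and 7.58 RPKM, and the inner cells were at 0 but for cell 3 at 1.67. In the late morula reads were found in all 10 cells, at 0.281, 0.623, 0.628, 1.23 and 1.38 in outer and 0.530, 0.614, 0.997, 16.0 and 17.0 in inner cells. The highest pair are inner cells 1 and 4, on 185 and 91 reads. Against 3 reads per cell at the 16-cell stage, the late morula mean is at least 12.1-fold higher, though at 3.92 RPKM it stays under the minimum for a call. Inner cells 1 and 4 hold most of that mean. The other late morula cells held 0.281 to 1.38 RPKM, on 1 to 12 reads, so the ratio does not stand for all cells of the stage. Within the late morula outer cells averaged 0.827 (0.459) and inner cells 7.02 (8.65), a log2 ratio of -2.13 with 58.1% of genes called. The other 3 inner cells lay within the range of the outer ones.

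In the early and middle blastocyst LGALS1 was a gene of some inner cells. Of the 6 outer early blastocyst cells (letter A) 4 were at 0, and cells 6 and 9 held 0.118 and 2.45. The inner cells of the same letter held 0, 0.149, 0.332, 4.66 and 9.77. Inner cells of letter G held 0.113, 1.95 and 95.5, and those of letter H 57.2 and 82.5. Letters G and H together against A gave a log2 ratio of 3.60 (means 47.4 and 2.98), with 3 of the 5 cells above all letter A cells.

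The middle blastocyst showed the widest gap by position within a letter. Outer cells of letter B held 0, 0.219, 0.261, 0.453 and 0.606 RPKM, and inner cells of the same letter 0.952, 2.27, 80.6 and 742. The values did not overlap, and the log2 ratio was -7.31 (means 0.308 and 206) in a contrast where 61.0% of the measured genes were called. Without inner cell 2, at 742, it is -4.47. Of the measured trophectoderm markers 10 of 14 were higher in the same outer cells and 2 lower, and of the epiblast markers 8 of 10 were lower and 1 higher (36.3% of all measured genes were higher and 24.7% lower). Without cell 2 the inner cells of letter B averaged 27.9 (45.6). Letter G held 0.722, 28.9, 38.7 and 49.7, and letter H 0, 0, 0.219 and 0.223. The letter G mean of 29.5 is thus near that of letter B without cell 2, and letter H lay below all cells of letter B. Letters G and H against B gave -3.71, with 79.4% of genes called and 69.3% of the calls higher (40.7% under median-of-ratios factors), or -0.87 without inner cell 2 of letter B.

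The highest LGALS1 group means came at the last 2 stages. Hatched cells of letter H ranged from 154 to 939 RPKM with a median of 252 (mean 374, SD 280), on 1407 to 7172 reads. Hatched cells of letter G were at 0 in 5 cells and at 0.337, 0.952, 1.05 and 5.08 in the others (mean 0.825, SD 1.65). There was no overlap, and G against H gave a log2 ratio of -7.68 with 45.1% of genes called. In the late blastocyst the 15 cells of letter G ran from 0 to 923 with a median of 103, and the 4 of letter H held 0.195, 0.461, 7.20 and 107. G against H gave 3.25 there, with 49.6% called and 44.6% of the calls higher (90.4% under median-of-ratios factors). So LGALS1 was higher in letter G in late and in letter H in hatched blastocysts, and this change of direction was not tested.

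Stage within a letter turned with it. The groups also differ in the clusters described below. Of the hatched cells of letter G, 8 lay in the trophectoderm-like cluster and 1 in cluster 4. Late cells of letter G lay in clusters 3 (7 cells) and 4 (8 cells). All 9 hatched cells of letter H lay in cluster 3 and all 4 late ones in cluster 2. At these 2 stages, contrasts by letter or by stage thus cannot be told apart from differences in cluster. In letter G, hatched against late blastocyst gave -7.27 (means 0.825 and 280), where 42.8% of the measured genes were called and 62.1% of the calls were higher (12.5% under median-of-ratios factors). In letter H the ratio was 3.66 (means 374 and 28.6), where 40.9% were called and 51.8% of the calls were higher (64.7%), and the values did not overlap. Without the late cell 3 of letter H, at 107, that ratio is 6.69. The 5 late cells of letter G whose source label says hatched held 0, 0, 0.114, 2.07 and 10.6, and the other 10 held 43.4 to 923 with a median of 359. Here the label conflict and the level of LGALS1 divide the cells in the same way. With all 9 conflicting cells counted as hatched, the ratio of G to H in hatched cells is -6.78 for LGALS1. The contrast within letter H compares hatched cells with 4 cells whose labels all conflict, so it rests on them and has no value without them.

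LGALS1 was also read by lineage. The 70 blastocyst cells were clustered without the galectins and the related gene lists, and 5 clusters were found. The trophectoderm-like cluster held 8 hatched cells of letter G (12 of 16 trophectoderm markers above the other cells). All 8 are labelled inner, so label and markers differ there. Cluster 3 held all 9 hatched cells of letter H and 7 late cells of letter G, with 7 of 11 measured epiblast markers above the other cells. None of its 10 leading genes was an epiblast marker, so it keeps a number. Cluster 4 held 8 late cells and 1 hatched cell of letter G, with 11 of 13 hypoblast markers and 8 of 16 trophectoderm markers above. Cluster 1 held the 20 early and middle cells with letter A or B. Cluster 2 held the 13 with letter G or H, beside the 4 late cells of letter H.

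**Figure D2:**
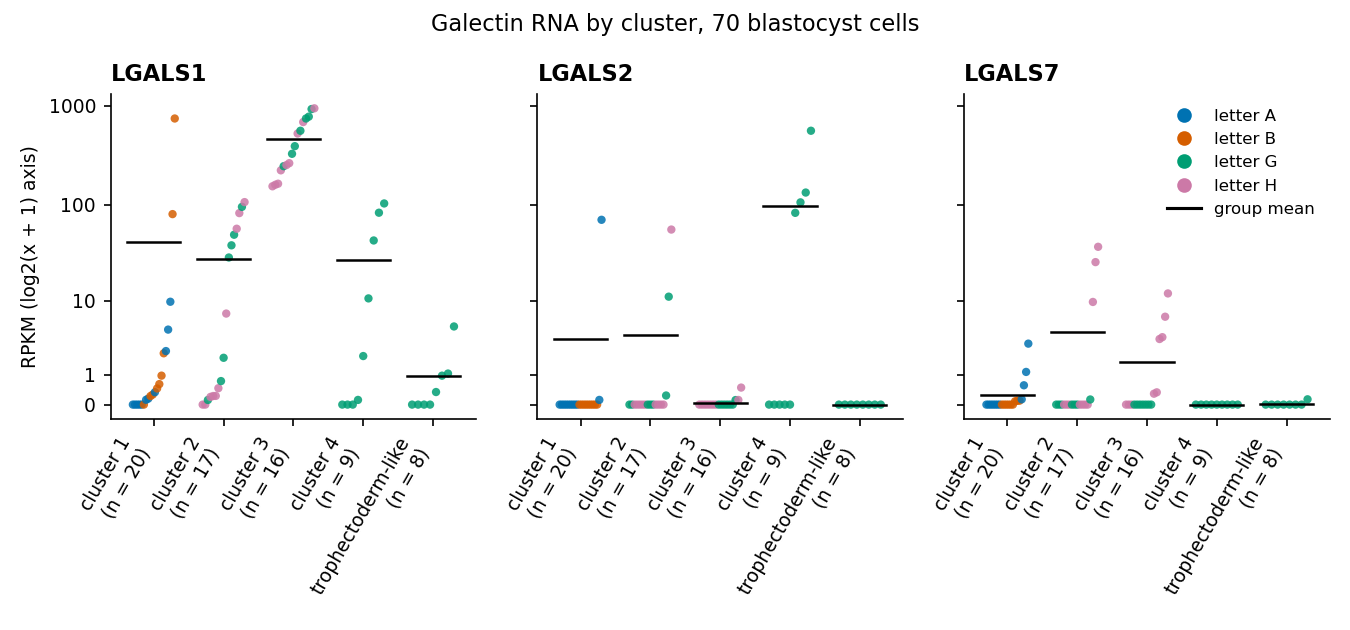
RPKM of the 3 galectins in the 70 blastocyst cells (points, on a log2(x + 1) axis, coloured by title letter) by cluster, with the cluster mean as a black line. All 16 cells of cluster 3 hold LGALS1 at 154 RPKM or more, the 4 highest cells for LGALS2 are in cluster 4, and the trophectoderm-like cells are at or below 5.08 for all 3 genes.

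All 16 cluster 3 cells held LGALS1 at 154 to 939 RPKM (mean 458, SD 279), on 62450 reads together. The 7 late cells averaged 566 (256) and the 9 hatched cells 374 (280), so cells of both letters share the level. Trophectoderm-like cells reached at most 5.08 (mean 0.928, SD 1.73). Cluster 4 ran from 0 to 103 (mean 27.0, SD 40.4). Neither overlapped with cluster 3. The log2 ratios against cluster 3 were -7.90 for the trophectoderm-like cells (44.5% of genes called, 55.3% of them higher, or 20.0% under median-of-ratios factors) and -4.04 for cluster 4 (52.1% called, 47.1% of them higher, or 75.3%). Trophectoderm-like cells against cluster 4 gave -3.86 (47.6% called, 59.1% of them higher, or 8.05%), with overlapping values.

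Cluster 4 is itself mixed. With 6 clusters it splits into 5 cells with 11 of 16 trophectoderm markers above the others and 4 cells with all 13 measured hypoblast markers above. The first 5 are the late cells of letter G with conflicting labels, also labelled inner, with LGALS1 at 10.6 or less (mean 2.56, SD 4.60). The other 4 held 0, 43.4, 83.3 and 103 (mean 57.5, SD 45.7). By mean, LGALS1 thus stood highest in cells with epiblast markers, lower in those with hypoblast markers and lowest in those with trophectoderm markers. The hypoblast-marker cell at 0 is the hatched cell 14.

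Single lineage genes were also read beside LGALS1. Over the 37 late and hatched cells, log2(RPKM + 1) of LGALS1 correlated with GDF3, a ligand of the Nodal pathway (r 0.87), with POU5F1 (0.85), ETV4 (0.85) and TDGF1, a Nodal co-receptor (0.84). It was inversely related to HAND1, a transcription factor of trophoblast and amnion (-0.85), PGF, placental growth factor (-0.79), and GATA2 (-0.77). These named genes have the strongest values of the epiblast and trophectoderm lists. Other epiblast markers were also positive but reached down to 0.35 for PRDM14, 0.28 for FGF4 and 0.19 for KLF17. Trophectoderm markers were not all inverse, with KRT7 at 0.36 and TFAP2C at 0.07, while the rest were negative. Among hypoblast markers the values ran from 0.00 for FOXA2, with -0.11 for SOX17 and -0.08 for GATA4, to -0.78 for LRP2. Over all 70 blastocyst cells the value for POU5F1 is 0.39, since early and middle cells held much POU5F1 and little LGALS1. POU5F1 averaged 3231 (1497) in the outer early blastocyst cells, for example, where LGALS1 averaged 0.427 (0.990). GDF3 kept 0.82.

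**Figure D3:**
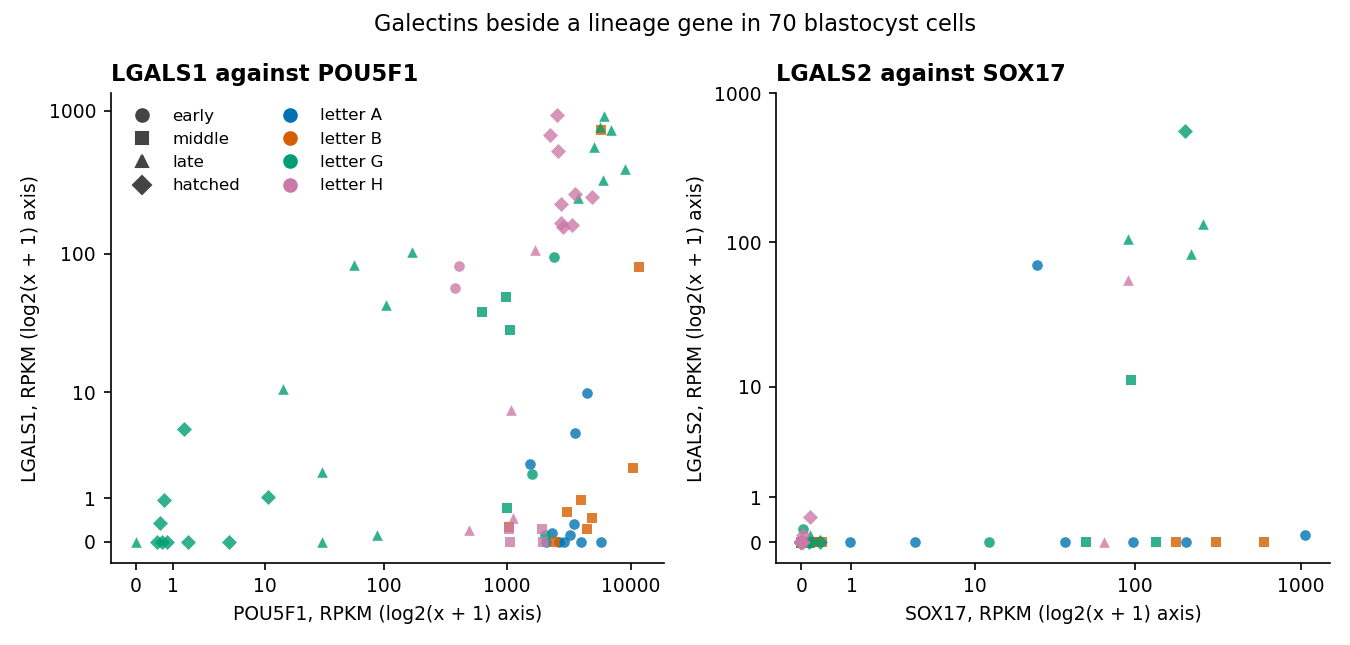
LGALS1 against POU5F1 (left) and LGALS2 against SOX17 (right) in the 70 blastocyst cells, both in RPKM on log2(x + 1) axes, with stage as the marker shape and title letter as the colour. The 16 late and hatched cells of cluster 3, with most POU5F1 at these stages, hold LGALS1 at 154 or more, many early and middle cells with as much POU5F1 do not, and the 7 cells with LGALS2 all hold SOX17 at 25.1 or more.

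The 5 genes most like LGALS1 over the 95 cells were GDF3 (r 0.81), CXCL12 (0.78), UNC5B (0.76), PTPRZ1 (0.73) and FXYD5 (0.73). CXCL12 is a chemokine and the ligand of CXCR4, UNC5B a netrin receptor, PTPRZ1 a receptor phosphatase and FXYD5 a regulator of the sodium pump. CXCL12 averaged 96.1 (55.5) in hatched cells of letter H, 28.7 (44.8) in late cells of letter G and at most 23.4 (43.6) in the other groups. UNC5B and PTPRZ1 were narrower, at 1 RPKM or more in 16 and 15 cells, all of which also held LGALS1 at that level. Across the 18 group means only CXCL12 remained among the 5 likest.

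LGALS1 is also an abundant gene of fibroblasts, so their markers were read in the same cells. The summed level of the 10 markers was 88.1 to 417 RPKM in hatched cells of letter H and 0 to 1.93 in those of letter G. Nearly all of it was COL1A2, a collagen chain, at 158 (111) in letter H. COL1A1 averaged 0.786 (1.85) there, and COL3A1, POSTN, ACTA2 and LUM were at 0 in all 9 cells. THY1 averaged 12.0 (36.1). In late cells of letter G the sum ran from 0.0230 to 213.

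Transcripts of proteins that galectins bind were read beside LGALS1. In hatched cells 8 of 13 measured binding partners were higher in letter G, where LGALS1 was low, and 0 lower, with a median of 1.88 against 0.06 over all measured genes, of which 24.1% were called higher. LAMA1, a laminin chain, averaged 47.7 (47.5) against 0.241 (0.379), and LAMP2, a lysosomal membrane glycoprotein, 43.7 (43.2) against 0.366 (0.819). FN1, fibronectin, averaged 317 (950) against 13.7 (10.9), though in trophectoderm-like cells alone it was 0.00895 (0.0102), so that mean comes from the hatched cell 14. Cluster 4, with a FN1 mean of 676 (1007), had 6 of 11 measured partners higher than cluster 3 and 1 lower, where 24.5% of all measured genes were higher.

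Transcripts of enzymes that build or cap galectin ligands were read in the same contrasts. In hatched cells of letter G 2 of 7 measured enzymes were higher and 1 lower, where 24.1% of all measured genes were higher and 45.1% were called in either direction, so the share is near the background. B3GNT2, which extends the lactosamine chains that galectins favour, averaged 80.2 (100.1) against 7.88 (16.1), and GCNT1, which makes branched O-glycans, 1.74 (3.88) against 9.17 (16.3). MGAT1, needed for complex N-glycans, averaged 47.9 (53.1) against 18.7 (14.1). Outer middle blastocyst cells, which had little LGALS1, had 5 of 6 measured enzymes higher than inner cells and 0 lower, beside a background of 36.3% called higher and 24.7% called lower. The median log2 ratio of these enzymes was 2.87, against 0.33 over all genes.

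LGALS2 was the rarest of the 3. It was at 0 in all 25 cells before the blastocyst, above 0 in 12 of the 70 blastocyst cells and at 1 RPKM or more in 7 (7.37% of the 95 cells, exact 95% binomial interval 3.01 to 14.6%). This share pools all stages and depends on how many cells were taken at each. The interval holds only counting error, as some cells may share an embryo. The other 5 cells above 0 held at most 0.482 RPKM, on 1 to 4 reads. The 7 cells were far from that limit. Outer early blastocyst cell 9 (letter A) held 70.5 RPKM on 529 reads and inner middle blastocyst cell 2 of letter G 11.1 on 83. Late cells 11, 12 and 17 of letter G held 133, 106 and 83.0, on 1196, 1003 and 869 reads. Late cell 9 of letter H held 56.1 on 459 reads, and hatched cell 14 of letter G held 559 on 6119. They thus come from 5 groups and from letters A, G and H, and no cell lay between 0.482 and 11.1.

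Group contrasts of LGALS2 rest on single cells. In the early blastocyst outer against inner cells of letter A gave 3.64, with 61.7% of genes called, and -0.03 without outer cell 9. Hatched cells of letter G against H gave 5.89 (means 62.1, SD 186, and 0.0661, SD 0.160), and -0.09 without cell 14. Hatched against late cells of letter G gave 1.49, and -4.49 without cell 14. In letter H the same contrast gave -3.82, and 0.09 without late cell 9. Late cells of letter G against H gave 0.58, under the 2-fold limit, and 4.49 without late cell 9.

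The 7 cells shared some genes of the hypoblast, the lineage that later forms the yolk sac. All 7 held SOX17 and GATA4, transcription factors of that lineage, at 10 RPKM or more. They ranged from 25.1 to 259 for SOX17 and from 25.0 to 242 for GATA4. Of the 70 blastocyst cells 14 met both limits, and LGALS2 was at 1 RPKM or more in 7 of these and in 0 of the 56 others. The 5 cells with 1 to 4 reads are inner early blastocyst cell 8 of letter A, which is among the 14, and 4 of the 56. FOXA2, a later endoderm factor, was at 10 RPKM or more in 8 cells, of which 5 held LGALS2. The other 2 LGALS2 cells, outer early blastocyst cell 9 and late cell 9 of letter H, held FOXA2 at 0.0858 and 0.157. APOA1, an apolipoprotein that hypoblast and yolk sac secrete, ran from 32.9 to 4146 in the 7 cells, and COL4A1, a basement membrane collagen, from 0.0429 to 633. Of 16 hypoblast markers, 6 reached 10 RPKM in outer early blastocyst cell 9 and 6 in late cell 9 of letter H. The other LGALS2 cells had 10 to 13. Late cell 9 of letter H also held NANOG, an epiblast marker, at 66.6.

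SOX17 and GATA4 without LGALS2 were found mostly earlier. The 7 such cells were outer early blastocyst cells 6 and 8, inner early blastocyst cell 8 of letter A (0.115 RPKM of LGALS2, 1 read), outer middle blastocyst cell 3, inner middle blastocyst cells 3 and 4 of letter G, and late cell 14 of letter H. The inner early cell held the most SOX17 of the 14 cells, at 1051, with FOXA2 at 107. Of the 6 late and hatched cells in the set 5 held LGALS2, against 2 of the 8 early and middle ones.

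By cluster, cluster 4 averaged 97.9 (181) and cluster 3 0.0441 (0.123), a log2 ratio of 6.57, and 4 of the 9 cells of cluster 4 lay above all cells of cluster 3. Those are the 4 cells that as a group had all measured hypoblast markers above the others, and they held 83.0, 106, 133 and 559. In the 5 cells of cluster 4 with trophectoderm markers, and in all 8 trophectoderm-like cells, LGALS2 was at 0. Without the hatched cell 14 the cluster 4 mean is 40.3 (57.2), and the ratio to cluster 3 is 5.31. Over the 37 late and hatched cells LGALS2 correlated with SOX17 (r 0.92), FOXA2 (0.91), GATA4 (0.87) and HNF4A (0.78), and over all 70 blastocyst cells with 0.53, 0.66, 0.59 and 0.33. Over the 70 cells the hypoblast markers ran from -0.05 for PDGFRA to 0.66 for BMP2. These correlations are set by the few cells that hold LGALS2.

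The 5 genes most like LGALS2 over the 95 cells were ADAM19, a membrane protease (r 0.72), APOBEC2 (0.70), FN1 (0.70), RHOBTB3 (0.68) and FOXA2 (0.67). ADAM19 was at 1 RPKM or more in 20 cells, among them all 7 with LGALS2. APOBEC2 shared 4 cells with LGALS2. Of the 5 genes, 3 remained among the 5 likest when genes at 1 RPKM in 7 cells could enter. Across the 18 group means 2 remained, and by Spearman correlation over the 95 cells 1.

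Taken in pairs, the 3 genes differed in how far they shared cells. Of the 95 cells, 44 held LGALS1, 26 LGALS7 and 7 LGALS2 at 1 RPKM or more. LGALS2 and LGALS7 never shared a cell at that level, though only 7 cells held LGALS2. LGALS1 and LGALS7 shared 10 cells. LGALS1 and LGALS2 shared 6, so most LGALS2 cells also held LGALS1. The hatched cell 14, at 0 for LGALS1, is the exception among the 7 LGALS2 cells. Whether these overlaps differ from what the share of each gene alone would give was not tested. In the 3 late LGALS2 cells of letter G the pair were of like size, at 83.3, 43.4 and 103 for LGALS1 and 133, 106 and 83.0 for LGALS2. Correlations over the 95 cells were 0.09 for LGALS1 with LGALS2, -0.16 for LGALS1 with LGALS7 and -0.16 for LGALS2 with LGALS7. LGALS1 and LGALS2 lie on the same chromosome of the RefSeq table with 4 genes between them, 3 of them protein-coding.

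Ordered by mean, no groups next to each other in the order were further apart than the spread between cells. LGALS1 came down from hatched H (374) over late G (280), middle inner B (206), early inner H (69.8), early inner G (32.5), middle inner G (29.5) and late H (28.6) to late morula inner cells (7.02). For LGALS7 the order was inner 16-cell (216), outer 16-cell (64.9), early inner H (31.6), outer early morula (22.8) and inner early morula (19.4), with all other groups at 2.95 or less. LGALS2 averaged 62.1 in hatched G, 21.5 in late G, 14.0 in late H, 11.8 in outer early blastocyst cells and 2.78 in middle inner G, with the others at 0.0780 or less. For none of the 16, 15 and 8 pairs of neighbouring means that differed was the gap larger than the SD of both groups. Only neighbours in the order were compared. Groups further apart can be clear of each other, as hatched cells of letters H (154 to 939) and G (up to 5.08) were for LGALS1. For LGALS2 each mean above 0 was smaller than its SD, so no larger gap could be found.

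**Figure D4:**
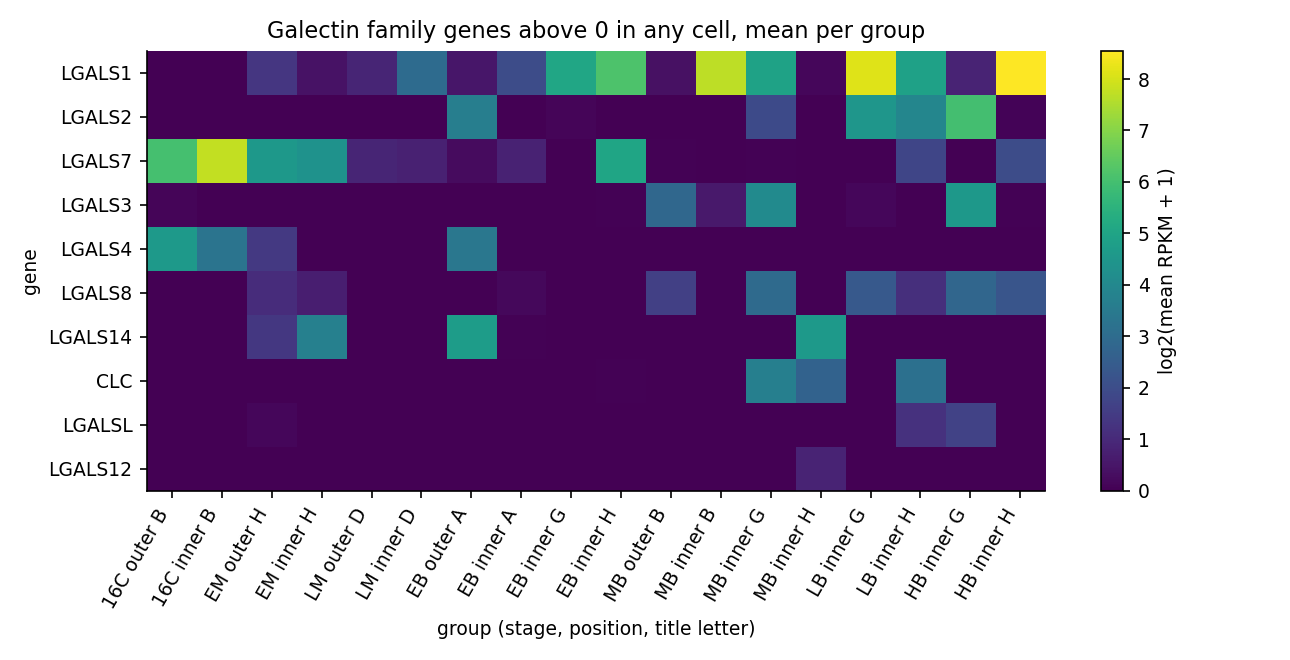
Mean RPKM per group, as log2(mean + 1) in colour, for the galectin family genes with reads in any cell (rows) in the 18 groups (columns). LGALS7 and LGALS4 are bright in 16-cell groups, LGALS3 in hatched cells of letter G, and LGALS1 in hatched H and late G cells.

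The rest of the family was sparse. Of 18 family genes looked for, 15 are in the table, and of the 12 beside the 3 members 5 (LGALS3BP, LGALS9, LGALS9C, LGALS13 and LGALS16) were listed at 0 in all cells. A further 7 reached 1 RPKM in some cell, and 4 of these in at least 5 cells. LGALS3 (galectin-3, the chimera-type member) averaged 25.2 (39.9) in the trophectoderm-like cells, 0.119 (0.343) in cluster 3 and 0.00544 (0.0163) in cluster 4. Its values in hatched cells of letter G were uneven, from 0 to 106 with a median of 0.719. LGALS8 reached 1 RPKM in 24 cells and never passed 25.5. LGALS14, a placental galectin of primates, was at 1 RPKM or more in 6 cells, with 153 in outer early blastocyst cell 6. That cell and cells 8 and 9 of the same group, all with SOX17 and GATA4, differed in their highest galectin. Cell 8 held LGALS4 at 56.2 and LGALS7 at 1.13, and cell 9 LGALS2 at 70.5 and LGALS1 at 2.45. CLC, the galectin-10 gene, reached 1 RPKM in 4 cells, inner middle blastocyst cells 3 and 4 of letter G (40.6 and 7.46) and 10 of letter H (21.8) and late cell 3 of letter H (30.5).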

How the data were processed

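The authors deposited a table of 16049 gene symbols in 95 cells, whose values were read as RPKM from their size, since the header names no unit. Per the labels' protocols, poly(A)-tailed cDNA of single cells was amplified by PCR and sequenced as single-end reads, and no molecular identifier is mentioned. The submitters' processing notes name FastQC, TopHat2 2.1.0, HTSeq and DESeq2, with no role. Build, annotation and filters are not given in the sources used here. No coordinates are printed. Steps of 1 read gave whole reads (within 0.02) for 12106 of 12499 genes (96.9%), which gave each cell's depth.

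Members and lists were chosen with earlier results of these data known. No label names an embryo, so each group counts as 1 sample, SDs are over cells, and no p-value was computed. All 95 columns had a sample (0 without). Log2 ratios used group means plus 1 RPKM. For clustering, Ward's method used 10 principal components of the 1000 most variable of 7938 genes in 70 cells, with 46 list genes left out. Clusters were named from marker lists, and planned comparisons of epiblast-like and hypoblast-like cells were replaced, after the data were seen, by cluster numbers. Doublets were not called. A gene list and a gene looked at beside the galectins are not reported here. Named genes are up to 4 of each list with the largest absolute log2 ratio in a comparison, and the 5 likest of each member among 9074 genes at 1 RPKM in at least 10 cells. Other galectins, marker values and single cells were chosen after their values were seen. Alternatives were other pseudocounts, scalings, averages, minimums, cluster numbers and leaving out cells. The ratio calculation was tested on simulated data. Of the symbols, 14282 matched the RefSeq gene table of the rhesus monkey, used for names and neighbours. Python 3.11.15, pandas 2.3.3, NumPy 2.4.6, SciPy 1.17.1 and matplotlib 3.10.9 were used.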

Additional observations from a re-analysis of the deposited data

Results flagged for a closer look

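In 13 of 31 sets of a gene and a group of 4 to 10 cells, the highest or lowest cell was flagged as far from the others by Dixon's ratio. Only sets with a cell at 1 RPKM or more could be flagged, though the 31 also include sets below that. Chance gives such a ratio in about 1 in 20 sets of normal values, a rate that does not apply where all other cells are at 0, as in 7 of the 13. Cells are not replicates, so the values are a description. In the early morula, outer cell 5 held LGALS1 at 7.58 RPKM (others up to 0.211), and inner cell 3 stood apart for LGALS1, at 1.67 (others 0), and for LGALS7, at 50.4 (others 9.70 to 13.6). In the late morula, inner cell 4 held LGALS7 at 3.27 (others up to 0.283). Outer early blastocyst cell 9 stood apart for LGALS1, at 2.45, and for LGALS2, at 70.5, and cell 8 for LGALS7, at 1.13. Among inner middle blastocyst cells of letter G, cell 10 was low for LGALS1, at 0.722 (others 28.9 to 49.7), and cell 2 high for LGALS2, at 11.1. In the late blastocyst of letter H, cell 9 held LGALS2 at 56.1 and cell 14 LGALS7 at 9.72. In hatched cells of letter G, cell 10 held LGALS1 at 5.08 (others up to 1.05) and cell 14 LGALS2 at 559.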

How the results depend on the processing

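Over the 24 member contrasts, 173 values under other settings were labelled as unchanged in direction and size, 39 as moved and 2 as reversed. Without a single cell, 374 were labelled as unchanged, 5 as moved and 4 as reversed. In both sets, not every change of sign was labelled as reversed. By the ranges without single cells given below, the ratio changed sign for LGALS7 in early morula outer against inner cells. For LGALS2 it did so in every contrast except those between clusters. Here L1, L2 and L7 stand for LGALS1, LGALS2 and LGALS7, and values are log2 ratios. A pseudocount of 0.1 gave, for late morula against 16-cell, L7 -7.30, for early blastocyst outer against inner L2 6.59, for hatched G against H L1 -8.66 and L2 8.55, for hatched against late H L2 -6.41, for cluster 4 against 3 L2 9.41 and for trophectoderm-like against cluster 4 L2 -9.94. A pseudocount of 10 gave, for late morula against 16-cell, L7 -3.80, for late against early morula L7 -1.53, for late morula outer against inner L1 -0.65, for early blastocyst outer against inner L2 1.12, for middle blastocyst L1 -4.39, for hatched G against H L1 -5.15 and L2 2.84, for hatched against late H L2 -1.26, for trophectoderm-like against cluster 3 L1 -5.42, for cluster 4 against 3 L2 3.43 and for trophectoderm-like against cluster 4 L2 -3.43. Median-of-ratios factors gave L7 -4.98 and -1.51 in late morula against 16-cell and early morula, and L2 1.60 in late G against H (1.11 with factors from genes above 0 in all cells). L7 in early morula outer against inner cells became -0.13. Means of log2 values gave, for early blastocyst outer against inner, L2 1.00, for middle blastocyst L1 -4.27, for hatched G against H L2 0.93, for hatched against late G L2 -0.34, for hatched against late H L1 5.59 and L2 -1.38, for cluster 4 against 3 L1 -5.92 and L2 3.20, and for trophectoderm-like against cluster 4 L2 -3.26. Medians gave L1 -0.30 in late morula outer against inner, L2 0.00 in each contrast that rests on few cells, L7 -0.18 in early blastocyst inner G and H against A, L1 5.71 in hatched against late H, L1 -6.88 in cluster 4 against 3 and L1 -1.39 in trophectoderm-like against cluster 4. Conflicting cells counted as hatched gave L2 2.93 in hatched G against H, and 4 clusters gave L1 -4.87 for trophectoderm-like cells against cluster 3. The cause was not tested. Counts of called genes moved by over 1.5 times in 32 cases with a pseudocount of 10, 24 with median-of-ratios factors, 16 with means of log2 values and 15 with medians.

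Without single cells the ranges were, for L7, -6.90 to -5.26 (late morula against 16-cell), -3.27 to -1.64 (early morula against 16-cell), -3.91 to -3.35 (late against early morula), -2.46 to -0.12 (16-cell outer against inner), -0.25 to 0.90 (early morula outer against inner) and 2.09 to 3.54 (early blastocyst G and H against A). For L1 they were -2.40 to -1.60 (late morula outer against inner), -7.72 to -4.47 (middle blastocyst outer against inner), 3.19 to 4.41 (early blastocyst G and H against A), -4.26 to -0.87 (middle blastocyst G and H against B), 2.85 to 6.28 (late G against H), -8.18 to -7.38 (hatched G against H), -7.77 to -7.01 (hatched against late G), 3.26 to 6.69 (hatched against late H), -8.43 to -7.79 (trophectoderm-like against cluster 3), -4.64 to -3.87 (cluster 4 against 3) and -4.39 to -3.26 (trophectoderm-like against cluster 4). For L2 they were -0.03 to 3.88 (early blastocyst outer against inner), -0.05 to 4.49 (late G against H), -0.09 to 6.05 (hatched G against H), -4.49 to 2.12 (hatched against late G), -4.21 to 0.09 (hatched against late H), 5.31 to 6.73 (cluster 4 against 3) and -6.80 to -5.37 (trophectoderm-like against cluster 4). Contrasts with late cells of letter H could not be run without the conflicting cells, nor trophectoderm-like against cluster 4 with 4 clusters, where they are 1 cluster. No paired analysis was possible because the numbers in the titles only name cells and the ratios come from no test. Values of a few reads, as for LGALS7 in the late morula, are limited by depth.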
